A study of Mus musculus with 24 samples.

Results

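The small integrin-binding ligand, N-linked glycoproteins (SIBLING family) of bone and dentin matrix were followed in mouse aorta. The 5 genes of the family, Spp1, Ibsp, Dmp1, Mepe and Dspp, were taken by name from the 32561 genes of the deposited expression table, by a rule that holds no value, though with earlier results of these data known. They encode secreted, acidic phosphoproteins that carry an Arg-Gly-Asp motif recognised by integrins and bind calcium and hydroxyapatite. Their phosphorylated, acidic stretches can hold back or promote the growth of mineral, depending on the protein and its processing. In arteries, osteopontin, the product of Spp1, is best known as a protein of macrophages and calcified plaques, whereas the other members are known mainly from osteoblasts, osteocytes and odontoblasts.

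RNA was sequenced from aortas of Klotho Kl/Kl mice, labelled as having renal disease, and of controls labelled as having healthy renal function, in 6 groups of 4 libraries. The strata were Bmp2+/+ males, Bmp2+/+ females and ∆UCS males, which carry the mutated Bmp2 allele ∆UCS on both chromosomes. All animals were congenic on 129S1/SvlmJ, 44 to 53 days old, bred from heterozygous parents and fed moistened chow after weaning. Controls were Klotho +/Kl, apart from 1 Bmp2+/+ male labelled Klotho +/+. Both mutant alleles were inherited, not restricted to the aorta. Aortas were flash frozen, RNA was extracted with miRNeasy and made into directional libraries, and the labels do not say how much surrounding tissue was kept.

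In 2 of the 24 libraries, Kl/Kl male replicate 1 and Kl/Kl female replicate 2 of the Bmp2+/+ groups, Xist and Ddx3y went against the labelled sex. Results were computed without these 2 (22 libraries, 12 control and 10 Kl/Kl), and those of the members are given again with all 24. With all 24, limma called 0 of 9933 genes and limma voom 0 of 22279 in each Klotho comparison, so every call given below for another gene was lost as well, and the values of the 2 libraries or the changes with all 24 stand beside the main ones. Between 20588478 and 61089836 reads fell in genes, as estimated from the table. Mitochondrial genes held 40.2% to 61.2% of the summed TPM, which is scaled to gene span, so this is not a share of reads. The mitochondrial share was 53.5% to 61.2% in ∆UCS controls and 40.9% to 52.5% in ∆UCS Kl/Kl males, without overlap. It was 52.2% to 60.0% and 44.9% to 54.8% in control and Kl/Kl females, and 47.3% to 58.6% and 40.2% to 55.8% in Bmp2+/+ males, and its part in the results was not tested. Smooth muscle markers were present in every library, with a summed TPM of 103 to 645 over 8 genes in the 22 libraries. Library names form 2 numbered sets: all ∆UCS libraries belong to the first and all female libraries to the second, and each Bmp2+/+ male group has libraries in both. The p-values measure the spread between these samples, and in whole aorta a change in the number of cells of a type and in RNA per cell cannot be told apart.

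The 5 genes lie on the plus strand of chromosome 5 within 270.34 kb (mm39), in the order Dspp, Dmp1, Ibsp, Mepe and Spp1. By the coordinates of the deposited table, Dspp (ENSMUSG00000053268) spans 104318578 to 104327994, and Dmp1 (ENSMUSG00000029307) spans 104350479 to 104361969. Ibsp (ENSMUSG00000029306) spans 104447037 to 104459336, Mepe (ENSMUSG00000053863) spans 104473195 to 104486478, and Spp1 (ENSMUSG00000029304) spans 104582984 to 104588917. Because neighbouring members were higher in the same libraries, the 250 bases before the transcription start of the 4 members with a RefSeq promoter entry (GRCm38.p6, plus strand) are shown, and Dspp had no entry. Capitals mark the core motif of RUNX factors, TGTGGT, searched on both strands (ACCACA is its reverse complement). RUNX2 is the master transcription factor of osteoblasts.
Spp1, chr5:104434861-104435110: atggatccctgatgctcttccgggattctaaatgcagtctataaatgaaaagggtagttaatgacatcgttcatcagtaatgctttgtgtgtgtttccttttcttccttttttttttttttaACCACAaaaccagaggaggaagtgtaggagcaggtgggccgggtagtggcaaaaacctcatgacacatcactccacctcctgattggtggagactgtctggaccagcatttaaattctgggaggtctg
Ibsp, chr5:104299037-104299286: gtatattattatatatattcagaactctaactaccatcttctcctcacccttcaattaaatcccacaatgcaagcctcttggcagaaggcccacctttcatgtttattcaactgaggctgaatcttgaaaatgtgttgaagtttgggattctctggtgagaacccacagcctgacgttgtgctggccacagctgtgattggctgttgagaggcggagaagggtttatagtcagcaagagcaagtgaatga
Dmp1, chr5:104202367-104202616: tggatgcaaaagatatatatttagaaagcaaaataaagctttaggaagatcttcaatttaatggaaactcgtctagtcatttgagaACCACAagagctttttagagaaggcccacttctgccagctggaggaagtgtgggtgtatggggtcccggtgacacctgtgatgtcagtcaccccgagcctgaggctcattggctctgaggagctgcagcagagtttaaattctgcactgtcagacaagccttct
Mepe, chr5:104325079-104325328: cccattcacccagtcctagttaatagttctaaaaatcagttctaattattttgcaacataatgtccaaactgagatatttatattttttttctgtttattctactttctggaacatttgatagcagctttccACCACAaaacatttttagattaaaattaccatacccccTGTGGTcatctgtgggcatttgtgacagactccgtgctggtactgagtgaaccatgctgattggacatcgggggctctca

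The RUNX core occurred in 3 of these 4 windows, counted from the transcription start at -128 in Spp1, at -164 in Dmp1 and at -118 and -80 in Mepe. It occurred in 14.0% of the 32851 promoter windows of the same length. The letters TATAAA, searched on both strands, were found at -211 in Spp1 on the plus strand, and at -28 in Ibsp and -173 in Mepe on the minus strand, and in 12.4% of all windows. The AP-1 motif TGANTCA and the M-box TCANGTG, each searched on both strands, were found in 0 of the 4 windows, against 6.75% and 12.2% of all windows. These matches describe the letters only.

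Spp1 encodes osteopontin, a secreted ligand of integrins and CD44 that attracts macrophages and binds to growing mineral. In Bmp2+/+ control males Spp1 stood at 0.291, 0.399, 0.723 and 0.199 TPM, and in Kl/Kl males at 212, 110 and 137 TPM. Control females had 5.54, 0.921, 0.404 and 0.363 TPM, and Kl/Kl females 195, 286 and 256 TPM. ∆UCS control males had 0.462, 0.400, 0.447 and 0.624 TPM, and ∆UCS Kl/Kl males 72.0, 110, 160 and 35.3 TPM. All 10 Kl/Kl libraries lay above all 12 controls, and female control replicate 1 was the highest control. The 2 libraries left out were labelled Kl/Kl and lay at control level, with 0.459 TPM in the male and 0.347 TPM in the female. Behind these values stood 51 to 1160 reads per control library and 9690 to 59146 reads per Kl/Kl library, so counting error is small beside the spread between animals.

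On the log2(TPM + 1) scale, which understates changes from low levels, Spp1 rose by 6.71 (SE 0.48) in Bmp2+/+ males, with an adjusted p of 1.62e-07 in limma. In females it rose by 6.78 (SE 0.48, limma adjusted p = 1.06e-07), and in ∆UCS males by 5.81 (SE 0.44, limma adjusted p = 7.91e-07). Of the 9861 genes tested, 1.04% were called higher in Kl/Kl males, 2.61% in females and 0.537% in ∆UCS males. Spp1 alone of the 5 members passed the filter of 1 TPM in 4 libraries, and it passed through the Kl/Kl libraries and 1 female control. With all 24 libraries the limma changes were 5.07, 4.91 and 5.81, with adjusted p of 0.589, 0.176 and 0.151, and 0 of 9933 genes were called in each of the 3 comparisons, although Spp1 had an unadjusted p of 0.00131, 0.00174 and 0.000366. In the ∆UCS males, a stratum that neither doubted library belongs to, the fit of those 2 groups alone gave an adjusted p of 0.000521 in limma. Within the first library set the male change was 6.69. Within the second, which held 1 Kl/Kl male, replicate 4, it was 6.74. The limma voom changes on estimated reads were 8.44, 7.50 and 7.07, with an adjusted p of at most 4.37e-06, and with all 24 libraries 6.77, 5.11 and 7.07, with adjusted p of 0.429, 0.323 and 0.188. In summed reads scaled for depth, Spp1 was 324-fold higher in Kl/Kl males, 80.9-fold in females and 157-fold in ∆UCS males. Female control replicate 1 held 1160 of the 1486 control reads behind the female ratio, which depends on that library. A predicted gene, Gm42793, overlaps the start of Spp1 on the same strand, and its median went from 0 to 1.34 TPM, so reads shared between them are uncertain.

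**Figure D1:**
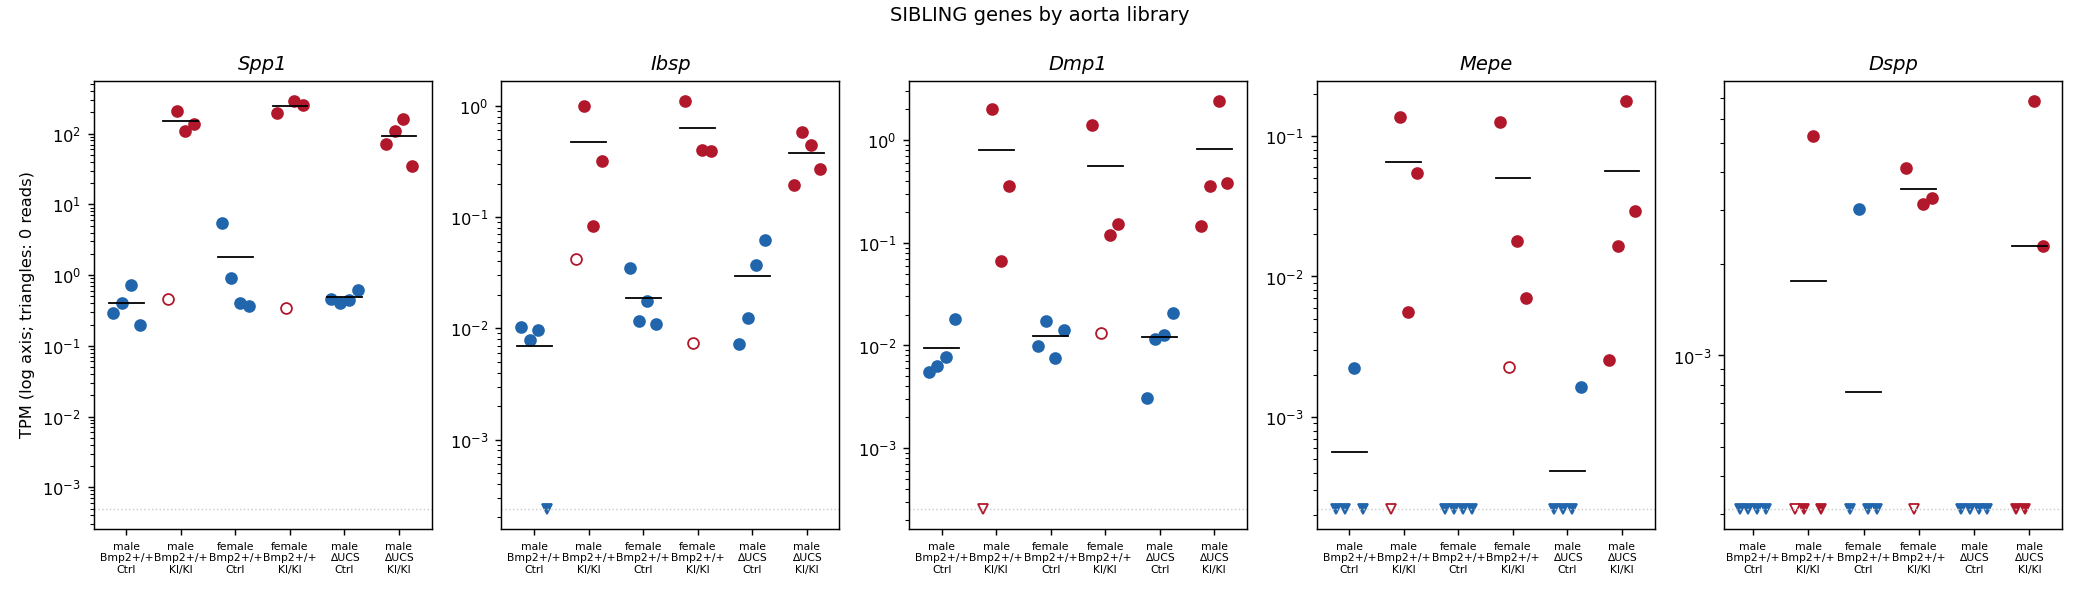
TPM of the 5 genes in each library on log axes, by group, with controls in blue, Kl/Kl in red and horizontal lines at the means of the libraries kept. Triangles mark libraries with 0 reads and open marks the 2 libraries left out. For Spp1 all filled red points lie above all blue points, while the open marks lie among the controls.

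Ibsp encodes bone sialoprotein, which nucleates hydroxyapatite and is made by osteoblasts, osteoclasts and hypertrophic chondrocytes. Control males had 0.0104, 0.00778, 0.00968 and 0 TPM, and Kl/Kl males 1.00, 0.0827 and 0.322 TPM. Control females had 0.0345, 0.0116, 0.0177 and 0.0110 TPM, and Kl/Kl females 1.09, 0.398 and 0.392 TPM. In ∆UCS males the controls had 0.00719, 0.0125, 0.0372 and 0.0620 TPM and the Kl/Kl animals 0.192, 0.582, 0.446 and 0.272 TPM. The groups did not overlap in any of the 3 comparisons, and all Kl/Kl values lay above the highest control. The exact permutation test gave an unadjusted p of 0.0286 in each comparison, the smallest value that 4 animals against 3 or 4 can give. Any gene without overlap reaches it, and 4.69%, 23.4% and 5.58% of all 32561 genes lay higher without overlap in males, females and ∆UCS males. In summed reads Ibsp was 55.6-fold higher in Kl/Kl males (516 against 12 reads), 24.5-fold in females (1010 against 30) and 10.6-fold in ∆UCS males (708 against 67).

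In limma voom, which tested 22212 genes on estimated reads, the log2 rise of Ibsp was 5.40 in males, 4.50 in females and 3.55 in ∆UCS males. The limma voom adjusted p-values were 0.00225, 0.00323 and 0.0105, beside 1.36%, 2.08% and 0.761% of all genes called higher. The call was lost in males without Kl/Kl replicate 4 (limma voom adjusted p = 0.104) and in ∆UCS males without control replicate 1 (0.0529). Within the first library set alone the limma voom adjusted p was 0.332 in males and 0.0609 in ∆UCS males, with changes of 4.92 and 3.56. With all 24 libraries the changes were 4.90, 3.17 and 3.55, with limma voom adjusted p of 0.429, 0.343 and 0.201. The doubted male library had 0.0422 TPM, above all 4 of its controls, and the doubted female library had 0.00739 TPM, below all 4 of its controls. With them the exact permutation p was 0.0286 in males and 0.143 in females.

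Dmp1 encodes dentin matrix protein 1, an osteocyte protein whose loss raises the phosphate-lowering hormone FGF23. Control males had 0.00556, 0.00625, 0.00777 and 0.0181 TPM, and Kl/Kl males 1.99, 0.0669 and 0.356 TPM. Control females had 0.00985, 0.0174, 0.00758 and 0.0141 TPM, and Kl/Kl females 1.40, 0.119 and 0.152 TPM. ∆UCS controls had 0.00308, 0.0117, 0.0126 and 0.0209 TPM, and ∆UCS Kl/Kl males 0.147, 0.355, 2.39 and 0.382 TPM. All 10 Kl/Kl libraries exceeded all 12 controls, and in each stratum 1 Kl/Kl library stood far above the others. Reads numbered 2 to 11 per control library and 31 to 1277 per Kl/Kl library.

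The exact permutation test gave Dmp1 an unadjusted p of 0.0286 in each of the 3 comparisons, again the smallest possible. Beside it, 4.69%, 23.4% and 5.58% of all genes lay higher without overlap in males, females and ∆UCS males. Summed reads were 61.8-fold higher in males, 35.7-fold in females and 64.2-fold in ∆UCS males. In limma voom the log2 changes were 5.13, 4.13 and 5.07, with adjusted p of 0.1002, 0.104 and 0.0609, so Dmp1 missed the threshold across all genes in each comparison. The limma voom adjusted p fell under the threshold when Kl/Kl male replicate 3 (0.0363) or ∆UCS Kl/Kl replicate 1 (0.0301) or 4 (0.0481) was left out. With age as a further term the limma voom changes were 5.81, 4.80 and 5.38, with adjusted p of 0.0172, 0.0200 and 0.0121. The limma voom fits with age or with an animal left out were chosen after the data were seen. An order of Dmp1 by age was noticed in these same values, so the fit with age is no independent support. The doubted libraries had 0 TPM in the male and 0.0132 TPM in the female, and with them the exact permutation p was 0.143 in males and 0.0857 in females. The limma voom changes with all 24 libraries were 3.85, 3.12 and 5.07, with adjusted p of 0.610, 0.545 and 0.205.

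Mepe encodes matrix extracellular phosphoglycoprotein, an osteocyte protein whose acidic fragment inhibits mineralization and is a substrate of the protease PHEX. It is best given in reads. Of the 12 controls 10 had 0 reads, and Bmp2+/+ male control replicate 3 and ∆UCS control replicate 4 had 1 read each. Kl/Kl males had 52, 3 and 22 reads, Kl/Kl females 85, 8 and 3, and ∆UCS Kl/Kl males 1, 7, 109 and 18. All 10 Kl/Kl libraries held at least 1 read, but in ∆UCS males the separation of the groups rests on 1 read against 1 read at different depths. Summed reads were 99.6-fold higher in males (95% counting interval 17.4 to 3985) and 136-fold in ∆UCS males (23.97 to 5405), and at least 23.3-fold higher in females, against a floor of 3 reads over the control group. These intervals cover counting error only.

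For Mepe the exact permutation test gave an unadjusted p of 0.0286 in each of the 3 comparisons, beside 4.69%, 23.4% and 5.58% of all genes higher without overlap. The limma voom adjusted p was 0.125, 0.106 and 0.141. With age as a term, a fit chosen after the data were seen, it was 0.0651, 0.0697 and 0.102, so Mepe missed the threshold in both fits. Without Kl/Kl male replicate 3 the limma voom adjusted p was 0.0461 in males. Its fitted changes of 4.72, 4.24 and 4.24 depend on the prior count, since the controls are near 0. The doubted male library had 0 reads and the doubted female library 1 read, and with all 24 libraries the exact permutation p was 0.143 in males and 0.0286 in females. The limma voom adjusted p with all 24 was 0.593, 0.371 and 0.223.

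Dspp encodes the precursor of dentin sialoprotein and dentin phosphoprotein, the main phosphoproteins of teeth. It had 1 read in 1 of the 12 controls, female replicate 2, and 10 reads in all over the 10 Kl/Kl libraries, 6 of which had any. Kl/Kl male replicate 3 had 2 reads, Kl/Kl females had 2, 1 and 1, and ∆UCS Kl/Kl replicates 3 and 4 had 3 and 1. The exact permutation p was 0.429, 0.0571 and 0.429 in males, females and ∆UCS males, and a difference was not detectable at this depth. In females the Kl/Kl values lay above the controls on 1 read against 1 read, and overlapped them after median-of-ratios scaling. Both doubted libraries had 0 reads of Dspp.

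Over the family, Spp1, Ibsp, Dmp1 and Mepe did not overlap between Kl/Kl and control in any of the 3 comparisons with 22 libraries, and Dspp did not in females. In limma voom Spp1 and Ibsp were called in each comparison, Dmp1 and Mepe were tested and not called, and Dspp had too few reads to be tested. Mepe reached the minimum of 10 reads only in Kl/Kl libraries, and Dmp1 in the 10 Kl/Kl libraries and 1 control. Ibsp reached it in the 10 Kl/Kl libraries and in controls with 15, 19 and 35 reads. These controls alone fall short of the 4 libraries needed. The number of members that passed this filter is therefore no support for a difference. Limma voom called 0 of the members with all 24 libraries. Of all 32561 genes, the share lying higher without overlap was 4.69% in males, 23.4% in females and 5.58% in the ∆UCS stratum. In all 3 at once it was 0.722%. With all 24 libraries the shares were 1.21%, 8.56% and 5.58%, and the non-overlapping members were Ibsp in males, Mepe in females, and Spp1, Ibsp, Dmp1 and Mepe in ∆UCS males. Compared per exon length, since the deposited TPM is scaled to the whole span of a gene, the median levels of the 10 Kl/Kl libraries were 504 RPKM over exons for Spp1, 2.31 for Ibsp, 1.30 for Dmp1, 0.208 for Mepe and 0.00605 for Dspp. In the controls the medians were 1.64 for Spp1, 0.0695 for Ibsp and 0.0478 for Dmp1, with Mepe and Dspp at 0. Spp1 thus ranked highest in both, and its median in controls lay between those of Ibsp and Dmp1 in Kl/Kl. Ibsp (0.581 to 5.46) and Dmp1 (0.329 to 9.35) overlapped on this scale across the Kl/Kl libraries.

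**Figure D2:**
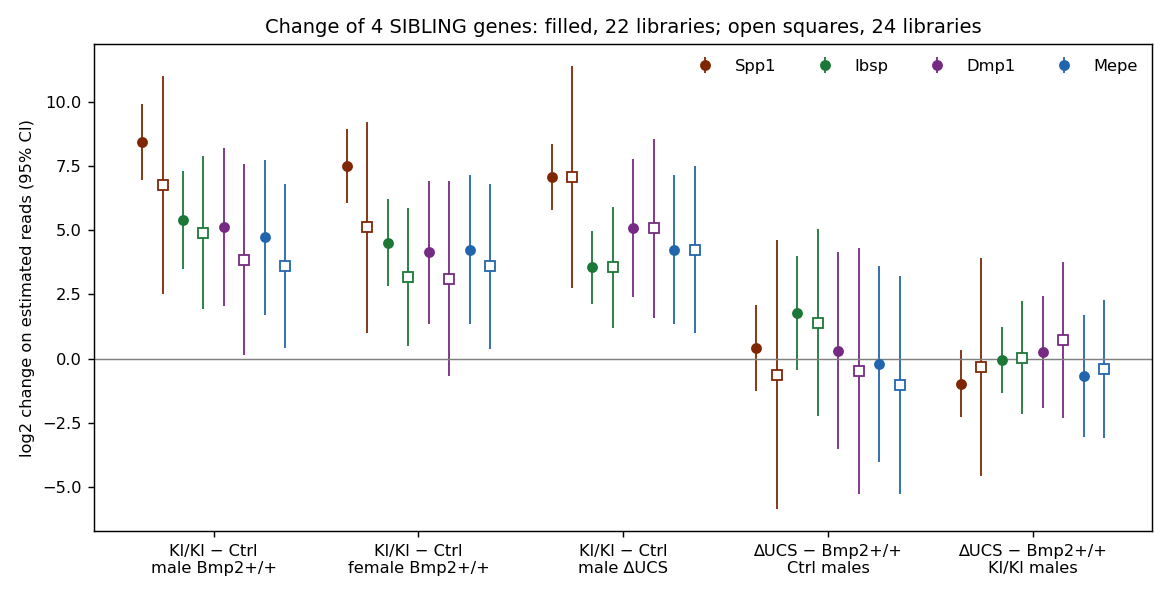
Change in log2 reads from limma voom with its 95% interval for Spp1, Ibsp, Dmp1 and Mepe in 5 comparisons. Filled circles use 22 libraries and open squares all 24. The first 3 columns, Kl/Kl minus control, lie above 0 with 22 libraries, and both ∆UCS columns span 0.

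The effect of the ∆UCS allele was asked in control and in Kl/Kl males, which are the same animals as in the Klotho comparisons. In limma Spp1 differed by 0.00 between ∆UCS and Bmp2+/+ control males (95% interval -1.06 to 1.06, adjusted p = 1.00) and by -0.90 between Kl/Kl males (-1.96 to 0.15, adjusted p = 1.00). No gene was called in either comparison by limma or limma voom, with 216 and 180 genes at an unadjusted p under 0.05 in limma and 1363 and 646 in limma voom. Of the 4 members fitted with limma voom, 0 were called and 0 had an unadjusted p under 0.05, and the lowest unadjusted p was 0.108 for Ibsp in controls. In limma voom Ibsp differed by 1.79 in control males (95% interval -0.43 to 4.01) and by -0.06 in Kl/Kl males (-1.34 to 1.23). Dmp1 differed by 0.31 (-3.52 to 4.14) and 0.25 (-1.91 to 2.42), and Mepe by -0.20 (-4.02 to 3.61) and -0.68 (-3.05 to 1.68). Each of these intervals spans 0. With all 24 libraries limma gave Spp1 a difference of -0.82 in control males, with an adjusted p of 0.944. The control males were the same in both fits, so this value moved only through the library-set term that all groups share. In Kl/Kl males the unadjusted limma p with all 24 was 0.957. Over the alternative fits, apart from those without 1 animal, the Spp1 difference in Kl/Kl males ran from -0.98 to -0.08.

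Ibsp in ∆UCS control males had 67 reads in all against 12 in Bmp2+/+ control males, a ratio of 4.54 (95% counting interval 2.43 to 9.21). This interval covers counting error only, not the spread between animals: the ∆UCS controls had 5, 8, 19 and 35 reads. The exact permutation p was 0.143 on the deposited scale, where the groups overlapped. After median-of-ratios scaling they did not overlap and the exact permutation p was 0.0286, beside 0.418% of all genes higher without overlap in this comparison on the deposited scale. All ∆UCS libraries are in the first library set, and the chondrocyte marker sum ran from 0.858 to 7.67 TPM in ∆UCS controls and from 0.725 to 3.56 TPM in Bmp2+/+ control males. The part of these markers in the difference was not tested.

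Whether the rise in Kl/Kl differed between strata was tested as an interaction. For Spp1 the limma difference was -0.90 (SE 0.65, adjusted p = 0.954) between ∆UCS and Bmp2+/+ males, and 0.07 (SE 0.68, adjusted p = 0.992) between females and males. In limma voom the lowest unadjusted p over the 4 members was 0.119 for the first, for Ibsp with a difference of -1.85 (95% interval -4.22 to 0.52), and 0.347 for the second, for Spp1. Neither interaction was called for any member, and 0 of 4 members had an unadjusted p under 0.05 in either.

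The members ranked the 10 Kl/Kl animals differently. The 3 highest Dmp1 values, 2.39, 1.99 and 1.40 TPM, came from ∆UCS male replicate 3, Bmp2+/+ male replicate 2 and female replicate 1, and the other 7 libraries had 0.0669 to 0.382 TPM. The same 3 libraries had the highest Mepe values, with 0.176, 0.137 and 0.125 TPM. They ranked 5, 3 and 4 of 10 for Spp1 and 4, 2 and 1 for Ibsp. These were the 3 Kl/Kl animals labelled 45 days, and the other 7 were labelled 47 to 53 days. The pattern was noticed in these values and was not tested, and 45 days is also the age of both doubted libraries, which had no such levels.

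**Figure D3:**
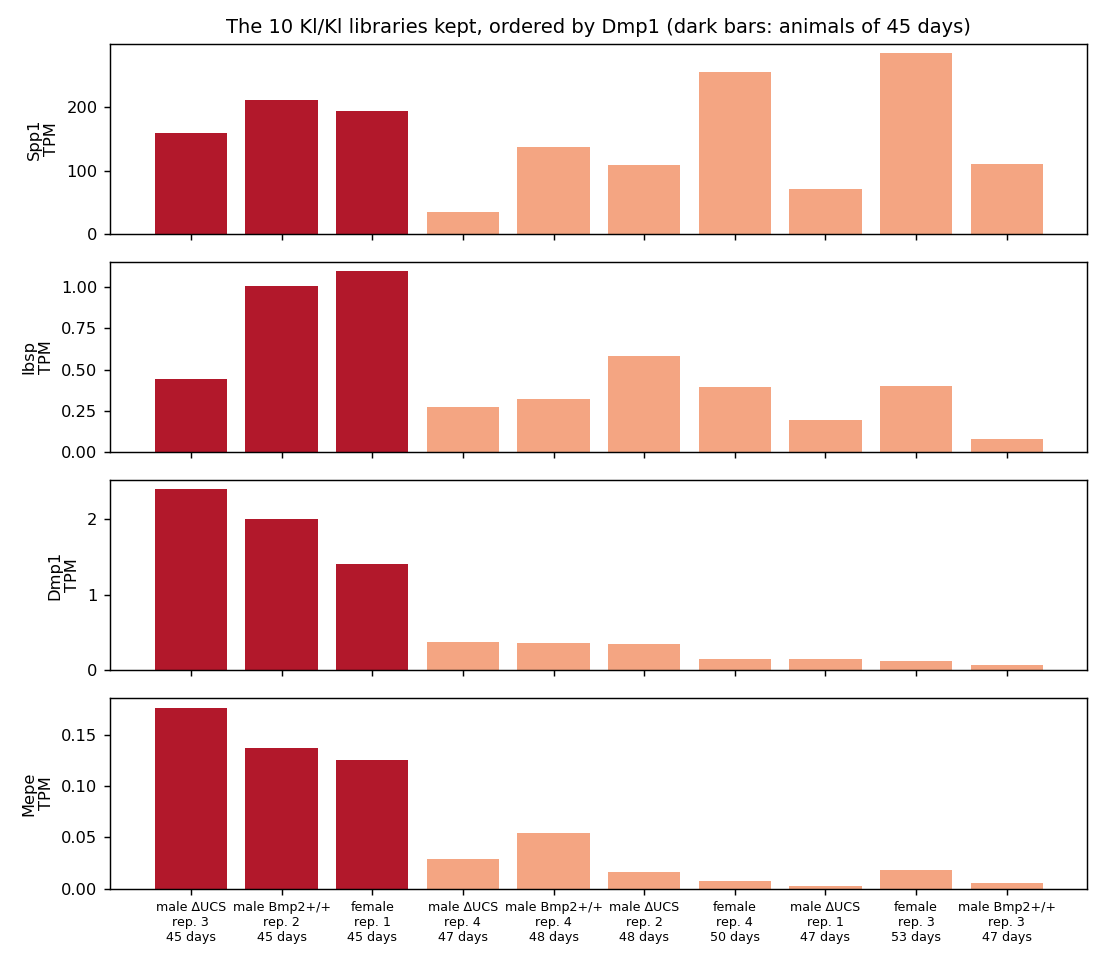
TPM of Spp1, Ibsp, Dmp1 and Mepe in the 10 Kl/Kl libraries kept, ordered by Dmp1 and labelled by group, replicate and age. Dark bars are the animals of 45 days: they are the 3 highest for Dmp1 and for Mepe, whereas the 2 highest Spp1 bars are females of 50 and 53 days.

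Fgf23, the phosphate-lowering hormone of osteocytes, was singled out from the osteocyte markers after its values were seen. The same 3 libraries had its highest values, 0.594, 0.570 and 0.491 TPM (235, 139 and 214 reads), and the other 7 had 0 to 0.129 TPM (0 to 35 reads). The 12 controls had 0 to 5 reads. Its limma voom changes were 4.05, 4.72 and 5.16, with adjusted p of 0.390, 0.194 and 0.159. Over all 24 the changes were 3.29, 3.51 and 5.17, with limma voom adjusted p of 0.711, 0.539 and 0.230. Bglap, the osteocalcin gene, shared this order in part: 2 of the 3 libraries, Bmp2+/+ male replicate 2 and female replicate 1, had 3.34 and 2.75 TPM, whereas ∆UCS replicate 3 had 0.382 TPM. Its highest value, 4.62 TPM, was in ∆UCS Kl/Kl replicate 4, which had 4 reads of Fgf23, and the other 6 libraries had at most 0.775 TPM. Bglap has near-identical neighbours, so its counts are uncertain.

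Markers of cells known to make these proteins, and of neighbouring tissues, were summed in each library. Over 10 macrophage markers the summed TPM was 36.0 to 199 in controls and 252 to 703 in Kl/Kl, without overlap, with Lyz2 the most abundant, and 4, 5 and 4 of the 6 markers tested by limma were called higher in the 3 comparisons. The doubted libraries had macrophage sums of 125 TPM in the male and 59.2 TPM in the female, within the range of the controls. On the deposited scale ∆UCS Kl/Kl replicate 4 had both the lowest Kl/Kl macrophage sum and the lowest Kl/Kl value of Spp1. In Spp1 reads scaled for depth it had 11955, above the 10057 of ∆UCS Kl/Kl replicate 1. Its median-of-ratios factor was low, at 0.847, so TPM values of many genes were low in it. Over 10 osteoclast markers the sum was at most 18.1 TPM in control males against at least 25.5 TPM in Kl/Kl males, and at most 9.31 TPM against at least 37.1 TPM in females. In ∆UCS males the sums overlapped, at 7.98 to 15.9 TPM and 12.1 to 25.4 TPM, and the doubted libraries had 10.1 TPM (male) and 10.3 TPM (female). Of the 3 osteoclast markers tested by limma, 2 rose in each comparison, beside 1.04%, 2.61% and 0.537% of all genes. Atp6v0d2, a subunit of the proton pump that acidifies the resorption space, rose by 1.31, 1.63 and 0.73, with limma adjusted p of 3.23e-05, 1.23e-06 and 0.0101. Ctsk, the collagen-degrading protease cathepsin K, rose by 3.10, 3.43 and 1.93 in limma with an adjusted p of at most 0.000907, and Acp5, the tartrate-resistant phosphatase, changed by -0.24, 0.26 and -0.23 with limma adjusted p of 0.870, 0.666 and 0.683. The changes with all 24 libraries were, for Atp6v0d2, 0.98, 1.22 and 0.73 and, for Ctsk, 2.31, 2.63 and 1.93, with limma adjusted p of 0.150 to 0.589. Calcr, the calcitonin receptor of osteoclasts, had 0 to 17 reads per library.

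The sums over 10 osteoblast and osteocyte markers overlapped, at 1.82 to 30.1 TPM in controls and 3.87 to 45.0 TPM in Kl/Kl. Sost, the osteocyte Wnt inhibitor sclerostin, was the most abundant of them, with limma changes of 1.19, -0.60 and -0.58 (adjusted p 0.594, 0.617 and 0.616). Bglap2, on the same list, changed by 0.54, -0.00077 and 1.36 in limma (adjusted p 0.686, 0.999 and 0.0836). In the library with the highest sum, Bmp2+/+ Kl/Kl male replicate 2, Bglap, Fgf23, Sp7, Runx2 and Phex held 3.34, 0.570, 0.171, 0.0238 and 0.0193 TPM. The overlap of the sums therefore says little about these genes. The sums over 10 chondrocyte markers overlapped as well, at 0.725 to 7.67 TPM and 1.13 to 20.9 TPM. The doubted male and female libraries had 10.6 and 29.5 TPM on the first list and 5.30 and 3.58 TPM on the second. Bmp2+/+ Kl/Kl male replicate 3 had the lowest Kl/Kl sum on both lists and the lowest Kl/Kl values of Ibsp and Dmp1. This library also had the lowest median-of-ratios factor of the Kl/Kl libraries, 0.835, so TPM values of many genes were low in it. Airway epithelium markers summed to 386 to 1599 TPM in control males and 463 to 2212 TPM in Kl/Kl males. In females the sums were 239 to 1159 TPM and 2043 to 2903 TPM, and in ∆UCS males 5.72 to 790 TPM and 823 to 2221 TPM, so in these 2 strata they separated Kl/Kl from control without overlap, as the members did. Cardiomyocyte markers summed to 28.6 to 1383 TPM in controls and 78.8 to 4015 TPM in Kl/Kl, and in females, at 188 to 326 TPM against 371 to 4015 TPM, they did not overlap either. The doubted female library had 237 TPM of airway markers, below all its controls, and 565 TPM of cardiomyocyte markers, and the doubted male library had 680 and 250.2 TPM. Of the airway markers 0, 1 and 1 of 4 tested by limma rose: Scgb3a1, a secretoglobin, changed by 1.30, 3.71 and 3.80 (adjusted p 0.592, 0.0150 and 0.0181), and in females its limma voom adjusted p was 0.0603. Its limma changes with all 24 libraries were 1.20, 2.51 and 3.80 (adjusted p 0.868, 0.309 and 0.151). Of 6 cardiomyocyte markers 0 were called by limma, with 0, 1 and 0 at an unadjusted p under 0.05. Adipocyte markers summed to 1456 to 2006 TPM and 946 to 2137 TPM. Fibroblast markers summed to 31.5 to 56.4 TPM in control females and 78.6 to 92.7 TPM in Kl/Kl females, without overlap, with 47.4 TPM in the doubted female library, and overlapped in the other strata. Of 5 fibroblast markers 0 were called by limma, with 1, 4 and 1 higher at an unadjusted p under 0.05, a threshold that 8.72%, 23.1% and 13.9% of all genes tested passed in the higher direction. The part of any of these cells in the members' rise was not tested.

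**Figure D4:**
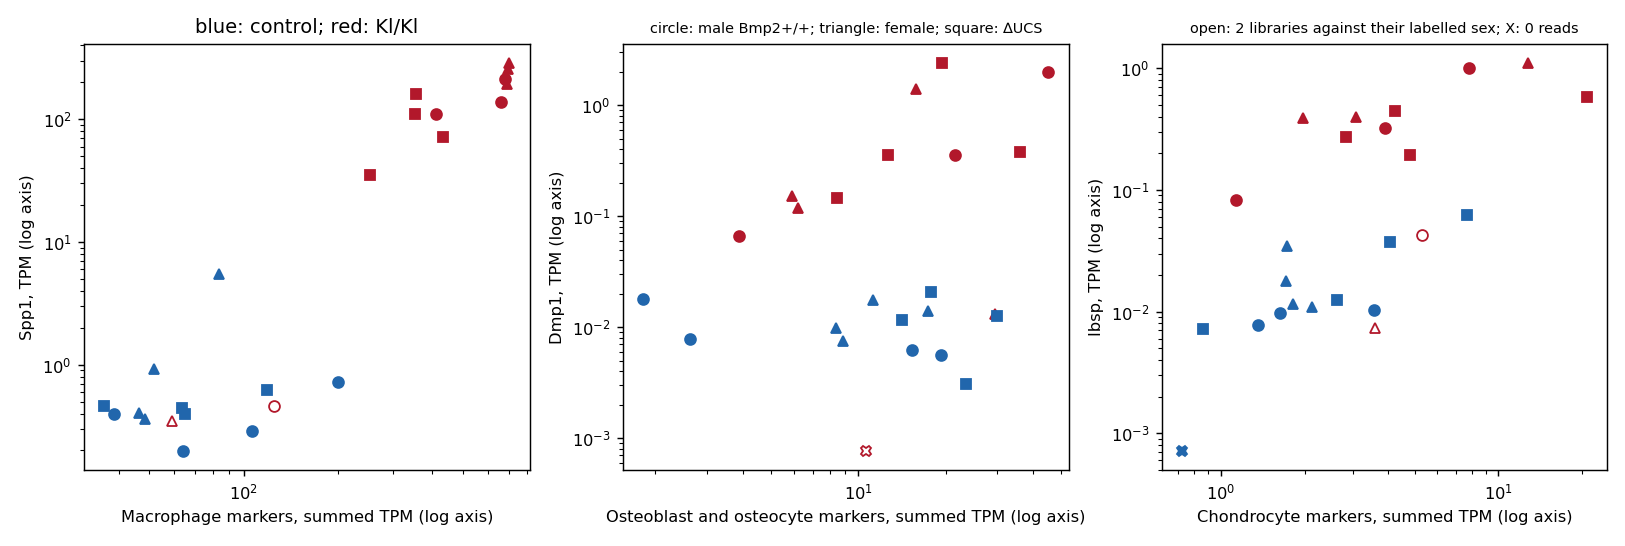
Spp1 against summed macrophage markers, Dmp1 against summed osteoblast and osteocyte markers, and Ibsp against summed chondrocyte markers, per library, in TPM on log axes. Red is Kl/Kl, blue control, open the 2 libraries left out and X a library with 0 reads. Macrophage sums separate red from blue (at least 252 against at most 199 TPM), and the other 2 sums overlap.

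Of 10 receptors, integrin chains and CD44, 4 were tested by limma, and 0 rose in males, 1 in females and 0 in the ∆UCS stratum. At an unadjusted p under 0.05 there were 3, 2 and 1 higher, beside 8.72%, 23.1% and 13.9% of all genes tested, shares that also stand behind the counts of the lists that follow. Their median log2 changes were 0.70, 0.68 and 0.18, against 0.09, 0.29 and 0.26 over all genes. Cd44, the hyaluronan receptor that also binds osteopontin, rose in females by 1.07 (limma adjusted p = 0.0047), from 0.458 ± 0.217 (SD, n = 4) to 2.05 ± 0.253 TPM (SD, n = 3). In males and in ∆UCS males its change was 0.58, with limma adjusted p of 0.267 and 0.123, and with all 24 libraries the 3 changes were 0.43, 0.78 and 0.58. The mean of Cd44 in control females lay under the 1 TPM of the filter, so its place among the genes tested is no support for a difference. Itgb1, Itga5 and Itga8, integrin chains that pair in Arg-Gly-Asp receptors, changed by 0.91, 0.71 and 0.70 in males, with limma adjusted p of 0.173, 0.609 and 0.432. On estimated reads, where all 10 were tested, Itgb3, the beta chain of the osteoclast vitronectin receptor, rose in females by 1.16 (limma voom adjusted p = 0.0200, and 0.253 with all 24 libraries), and was chosen after its values were seen.

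Of 15 kinases, proteases and crosslinkers that act on these proteins, 6 were tested by limma and 1, 1 and 0 rose, with 1, 2 and 0 at an unadjusted p under 0.05. The gene that rose was Mmp3, stromelysin, which cleaves osteopontin: its level was 0.353 ± 0.1005 (SD, n = 4) and 2.12 ± 0.869 TPM (SD, n = 3) in control and Kl/Kl males. Its limma changes were 1.20, 1.31 and 0.46, with adjusted p of 0.0142, 0.00314 and 0.297, and with all 24 libraries 0.86, 1.10 and 0.46 (adjusted p 0.653, 0.150 and 0.392). The mean of Mmp3 in control males lay under the 1 TPM of the filter, so its place among the genes tested is no support for a difference. Mmp2 (0.57, 1.00 and 0.61) and Bmp1, the protease that cleaves the DMP1 and DSPP precursors (0.02, 0.21 and 0.10), were not called by limma.

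Of 10 other bone matrix and mineralization genes, 7 were tested by limma and 1 rose in each comparison, with 2, 2 and 3 at an unadjusted p under 0.05. It was Mgp, matrix Gla protein, the inhibitor of arterial calcification. Mgp stood at 72.8 ± 29.8 TPM in control males (SD, n = 4) and 396 ± 217 TPM in Kl/Kl males (SD, n = 3), and its limma changes were 2.31, 2.36 and 2.29, with adjusted p of 0.0116, 0.00474 and 0.00913. These became 1.88, 1.83 and 2.29 with all 24 libraries, with limma adjusted p of 0.589, 0.194 and 0.151. Col1a1, the main collagen of bone and of the adventitia, changed by -0.29, 0.75 and -0.47, with limma adjusted p of 0.892, 0.360 and 0.559. Bgn, Phospho1 and Bglap3 were not called either, with limma changes in males of 1.31, -1.35 and -0.08. Of 8 other genes of the secretory calcium-binding phosphoprotein family, 2 were tested by limma and 0 rose in any comparison, with 1, 1 and 0 at an unadjusted p under 0.05. They were Sparc, osteonectin, at 0.41, 0.86 and -0.33, and Sparcl1 at 0.74, 0.58 and -0.19.

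Among 7 transcription factors known to act on these promoters, only Sox9 passed the TPM filter, and 0 rose in limma, with 0, 0 and 1 at an unadjusted p under 0.05. Runx2, whose core motif is shown above, was measurable only on estimated reads, and was chosen after its values were seen. Its limma voom changes were 0.83, 1.80 and 1.30, with adjusted p of 0.420, 0.0324 and 0.110, so it rose in females, and with all 24 libraries 1.13, 1.20 and 1.30 (adjusted p 0.617, 0.411 and 0.247). Over the 6 factors tested there, 0, 1 and 0 rose in limma voom, with 0, 3 and 4 higher at an unadjusted p under 0.05, beside 7.11%, 8.35% and 10.6% of the 22212 genes.

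Of 8 protein-coding neighbours of the cluster, 5 were tested by limma and 1, 1 and 0 rose, with 2, 1 and 0 at an unadjusted p under 0.05. The gene was Hsd17b11, a lipid droplet dehydrogenase on the far side of Dspp, which changed by 0.72, 0.78 and 0.26 with limma adjusted p of 0.0302, 0.00740 and 0.347, and with all 24 libraries by 0.54, 0.61 and 0.26 (adjusted p 0.657, 0.224 and 0.429). On estimated reads its limma voom adjusted p was 0.0600, 0.144 and 0.882. Pkd2, the gene next to Spp1, went from a median of 1.10 TPM in controls to 1.61 TPM in Kl/Kl, with limma changes of 0.33, 0.28 and 0.16 (adjusted p 0.657, 0.476 and 0.674). Ppm1k changed by 0.51, 0.42 and 0.30, and was not called by limma.

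**Figure D5:**
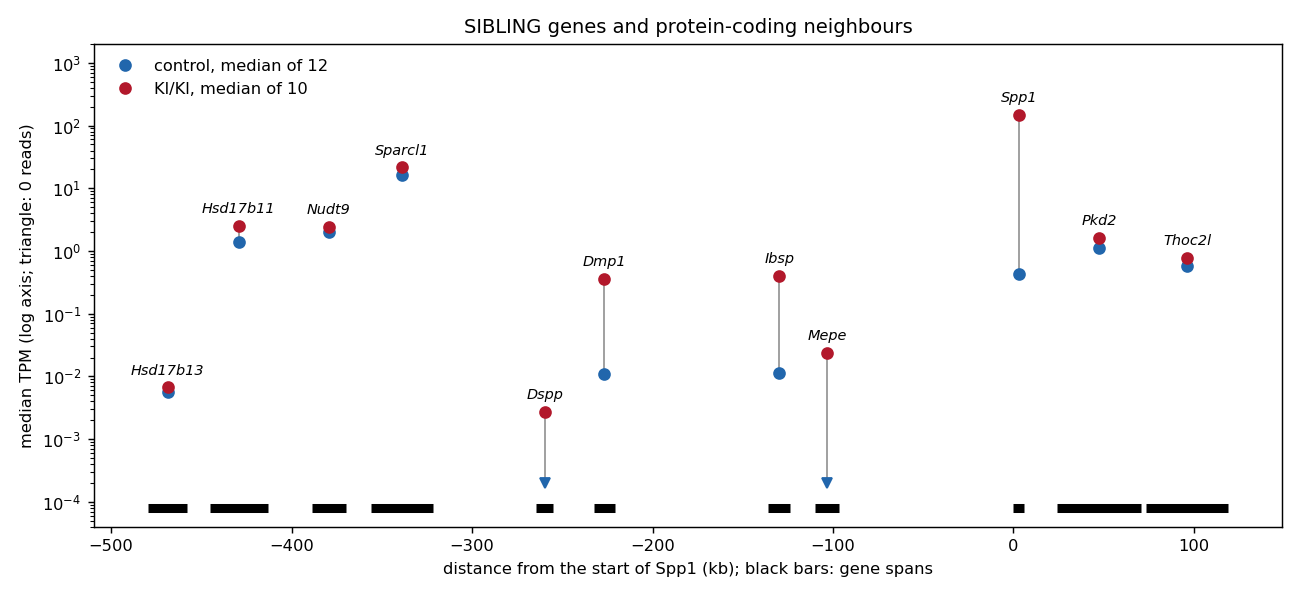
Median TPM of the 5 members and their protein-coding neighbours in 12 control (blue) and 10 Kl/Kl libraries (red), on a log axis, against distance from the start of Spp1. Black bars are gene spans and triangles medians of 0 reads. The gaps between blue and red are wide for Spp1 (0.425 to 148 TPM), Ibsp and Dmp1 and narrow for the neighbours (1.10 to 1.61 TPM for Pkd2). For Mepe and Dspp the control median of 0 is drawn at a fixed floor, so the size of the gap cannot be read. The Kl/Kl median of Dspp was 0.0027 TPM.

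Among the genes whose deviations from their group means were most like those of Spp1 over the 22 libraries, by Pearson correlation of log2(TPM + 1), were Cldn8 (r = 0.81), Mmp12 (0.80), Ctsk (0.79), Gdpd2 (0.77) and Sult1d1 (0.76). These are descriptions over libraries that share scaling and library set. Mmp12, the macrophage elastase, also rose in Kl/Kl, by 3.91, 4.67 and 3.02 with limma adjusted p of 1.62e-07, 1.16e-08 and 2.52e-06. Over all 24, the changes of Mmp12 were 2.97, 3.45 and 3.02, with limma adjusted p of 0.589, 0.150 and 0.151. The ranking depended on libraries and scaling. Over all 24, Mmp12 (r = 0.98) and Ctsk (0.97) ranked 1 and 2, but Sult1d1, Cldn8 and Gdpd2 ranked 369, 373 and 583 (r = 0.64, 0.64 and 0.59). There the 2 doubted libraries have Spp1 at control level within Kl/Kl groups. Genes higher in Kl/Kl and at control level in these 2 then deviate with Spp1 by construction. The larger r over all 24 is therefore no support for a closer relation. After median-of-ratios scaling Ctsk, Mmp12 and Cldn8 ranked 1, 2 and 3, Sult1d1 11 and Gdpd2 28.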

How the data were processed

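The authors deposited TPM values for 24 aorta libraries in 1 table. The submitters' processing notes name Partek and mm39. The aligner and annotation release are not stated in the sources used here, nor whether counting used strand. Each deposited TPM column sums to 482073. The scale follows the genomic span of a gene, so TPM compares 1 gene between libraries, and levels of different genes were compared only per kb of exon (GENCODE vM21). Values of 0 reads carry a small constant, 0.0001 read, and reads were estimated from it. For genes with such a value, 76.7% of estimates between 0.5 and 20 reads lay within 0.05 of a whole number. Values standing for 0 reads were set to 0 for the members, a step added after seeing the data. There were 0 unused sample columns.

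The limma fit (limma 3.58.1, R 4.3.3) used log2(TPM + 1) of genes reaching 1 TPM in 4 or more libraries, with 6 group means and the library set. P-values are two-sided and adjusted by Benjamini-Hochberg over all genes tested, with a threshold of 0.05. The members were also compared with an exact two-sided permutation test of the difference in mean TPM. For limma voom, estimated reads were scaled by median of ratios, and genes needed 10 reads in 4 libraries. Its fits with all 24 libraries, with age, within a library set or without 1 animal were chosen after the data were seen. Promoters came from RefSeq. The fits were tested on simulated data.

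Named genes were the 5 members, up to 4 genes of each partner list with the largest changes plus those called, up to 3 of each marker list with the highest mean TPM and defining markers at 0, and the 6 genes most like Spp1, of which 1 is not reported here. The members and lists were chosen with earlier results of these data known. Replicate numbers did not pair animals: over 17 pairs of libraries the correlation of deviations ran from -0.478 to 0.321.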

Additional observations from a re-analysis of the deposited data

Results flagged for a closer look

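Of 27 sets of 4 libraries as labelled, each a member in a group, 9 had 1 library standing apart from the other 3 by more than Dixon's limit at the 95% level. Chance gives about 1 in 20 such sets, and in a set with mostly 0 reads a single read is enough. Spp1 was highest in female control replicate 1, at 5.54 TPM. Dmp1 was highest in Kl/Kl female replicate 1, at 1.40 TPM, and in ∆UCS Kl/Kl replicate 3, at 2.39 TPM. Mepe was highest in the same 2 libraries, at 0.125 and 0.176 TPM. For the female group this counts the library whose sex markers went against its label. The remaining 4 rest on 1 or 2 reads: Mepe in Bmp2+/+ male control replicate 3 (0.00224 TPM) and ∆UCS control replicate 4 (0.00164 TPM), and Dspp in female control replicate 2 (0.00304 TPM) and Bmp2+/+ Kl/Kl male replicate 3 (0.00527 TPM).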

How the results depend on the processing

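With all 24 libraries Spp1 kept its direction but was no longer called by limma, at 5.07, 4.91 and 5.81, or 4.93, 4.64 and 5.61 after median-of-ratios scaling. Its ∆UCS difference in control males changed sign, at -0.82 and -0.76, as it did with age (-0.10), the compared groups alone and the first library set alone (both -0.0098). The Bmp2 interaction became 0.73 and 0.68. The sex interaction became -0.17 and -0.29, and -0.42 with a pseudocount of 0.1, -0.055 after median-of-ratios scaling and -0.94 in limma voom. With replicate number as a block, the sex interaction was -0.014 and the 3 Klotho changes 6.83, 6.82 and 5.81, and no call of Spp1 changed; in 2 of 17 pairs the library correlated best with its own number. None of the ∆UCS differences and interactions named here was called, and the cause of the changes was not tested.

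As differences in mean TPM with all 24 libraries, Ibsp in females (0.454), Dmp1 in males (0.594) and females (0.410) and Mepe in males (0.0485) lost an exact permutation p under the threshold. In limma voom Dmp1 (5.13, 4.13 and 5.07) and Mepe (4.72, 4.24 and 4.24) were not called. Between ∆UCS and Bmp2+/+ Kl/Kl males, Ibsp (0.0104) and Mepe (0.00709, or 0.00488 after median-of-ratios scaling) changed sign.

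In limma voom, the ∆UCS difference with all 24 libraries changed sign for Spp1 (-0.62) and Dmp1 (-0.49) in control males and for Ibsp (0.040) in Kl/Kl males. With age it did for Ibsp in Kl/Kl males (0.026) and Mepe in control males (0.39), and in the first library set for Ibsp (0.036). The Bmp2 interaction with all 24 changed sign for Spp1 (0.30), Dmp1 (1.22) and Mepe (0.62).

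Leaving out 1 animal at a time, limma voom gave ∆UCS differences in control males of -0.16 to 0.83 for Spp1, -0.10 to 0.71 for Dmp1 and -0.51 to 0.47 for Mepe, and in Kl/Kl males of -1.08 to 0.95 for Ibsp, -1.21 to 2.00 for Dmp1 and -1.97 to 0.49 for Mepe. The Bmp2 interaction ran from -0.92 to 0.91 for Dmp1 and -1.56 to 0.59 for Mepe, and the sex interaction from -1.64 to 0.28 for Mepe. As differences in mean TPM between control males, Dmp1 ran from -0.000320 to 0.00561 and Mepe from -0.000560 to 0.000410.

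Leaving out 1 animal at a time gave Spp1 changes of 6.48 to 6.95 in males, 6.55 to 7.30 in females and 5.49 to 6.20 in ∆UCS males, ∆UCS differences of -0.13 to 0.15 in controls and -1.22 to -0.50 in Kl/Kl, and interactions of -1.22 to -0.51 for Bmp2 and -0.17 to 0.59 for sex. Differences in mean TPM in males, females and ∆UCS males were 0.195 to 0.656, 0.377 to 0.728 and 0.274 to 0.404 for Ibsp, 0.202 to 1.16, 0.123 to 0.766 and 0.283 to 1.03 for Dmp1, and 0.0294 to 0.0948, 0.0125 to 0.0714 and 0.0157 to 0.0737 for Mepe. Without any 1 ∆UCS control the exact permutation p in ∆UCS males was 0.0571 for Ibsp, 0.114 for Dmp1 and 0.286 for Mepe, and leaving out an animal in the other strata leaves too few for an exact p under the threshold.

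Genes called in males, females and ∆UCS males numbered 109, 259 and 64 in limma, 154, 351 and 167 after median-of-ratios scaling, 340, 708 and 267 in limma voom, 48, 130 and 324 with a minimum of 5 TPM, 129, 988 and 66 with no minimum, 15, 621 and 53 for the groups alone, 138, 284 and 101 without the library set, and 0 each with all 24 libraries. Median-of-ratios scaling moved the median change of all genes from 0.09, 0.29 and 0.26 to -0.04, -0.00 and 0.06, and the calls from 103, 257 and 53 higher to 134, 220 and 89. Depth limits Mepe and Dspp most.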
